A study of Mus musculus with 22 samples.

Results

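Class II molecules of the major histocompatibility complex carry peptides from internalised protein to the surface of antigen-presenting cells, where CD4+ T cells read them. The 9 genes described here make and load these molecules in the mouse. They were chosen by symbol (*H2-Aa*, *H2-Ab1*, *H2-Eb1*, *Cd74*, *H2-DMa*, *H2-DMb1*, *H2-Oa*, *H2-Ob* and *Ciita*) from the 41388 genes of the deposited tables, and all 9 were found and passed the filter on low counts that left 15043 genes for testing. *H2-Aa* and *H2-Ab1* encode the alpha and beta chains of I-A, and *H2-Eb1* encodes the beta chain of I-E. *Cd74* encodes the invariant chain, which fills the peptide groove until the molecule reaches the endosome. H2-DM (*H2-DMa*, *H2-DMb1*) exchanges the remnant of the invariant chain for peptide, H2-DO (*H2-Oa*, *H2-Ob*) restrains H2-DM and is best known from B cells, and *Ciita* encodes the transactivator that turns the class II genes on. Macrophages, dendritic cells and B cells are the main cells known to express them. C57BL/6 mice, as used here, carry an I-E alpha gene that is not expressed, so *H2-Eb1* RNA is made there without I-E at the surface.

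RNA had been sequenced from stromal cells of tumours that grew for 2 weeks in C57BL/6 mice of postnatal day 56. The wild type (WT) group was Osx-cre;Ai9, with Cre under a tetracycline-repressible *Sp7* promoter and a TdTomato reporter. The other group was Cdh2-cKO;Ai9 (cKO), labelled as a conditional knockout of *Cdh2*, and its labels carry the same reporter but do not name its Cre. The study fed its Osx-cre;TdT mice doxycycline, which holds the promoter off, until weaning in the experiments that followed its first ones; the sequencing methods and labels do not restate the diet. The tumour line carried GFP, and GFP+ tumour cells were removed in the sort. TdTomato and CD45 together defined 4 sorted populations, TdT single positive (TdTomato+, CD45-), double positive (TdTomato+, CD45+), CD45 single positive (TdTomato-, CD45+) and double negative cells. Each genotype gave 2 TdT single positive libraries and 3 libraries for every other sort, 22 in all. The labels name an orthotopic MMTV-BO1 tumour and the study's methods a subcutaneous PyMT-BO1 tumour. The libraries came from those of the 4 WT and 6 cKO inoculated mice whose RNA met a quality limit, and the labels do not tie a library to a mouse.

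Each library held 16594228 to 26784003 counts, so that 3 counts, the smallest signal taken as present, stood for 0.103 to 0.201 CPM. CPM here are counts scaled to the library total after TMM adjustment, which evens out differences in RNA composition. Library labels were checked first. *Ptprc*, which encodes CD45, lay between 472 and 1821 CPM in the 12 CD45+ libraries, and between 2.45 and 337 CPM in the 10 CD45- libraries. The highest of these CD45- values was in WT double negative replicate 3, whose 5 pan-leukocyte markers summed to 4878 RPKM (CPM divided by gene length in kilobases) against 68.0 to 860.5 RPKM in the other 5 double negative libraries. WT CD45 single positive replicate 2 also stood apart, with 1714 RPKM summed over 5 B cell markers against 0.480 to 14.4 RPKM in the 21 other libraries. *Cdh2* was not lower in the cKO libraries of the CD45- sorts, where it was well detected: TdT single positive cells had 17.2 and 13.1 CPM in cKO and 9.14 and 5.19 CPM in WT, and double negative cells 12.5, 18.4 and 14.2 CPM against 6.02, 7.47 and 4.52 CPM. In CD45+ cells it stayed between 0 and 2.74 CPM, with a log2 difference (cKO minus WT) of -0.55 in double positive cells (edgeR adjusted p = 1.0). In CD45- cells the targeted gene did not bear out the genotype label; the counts cover the whole gene and do not check a deletion of part of it. This group is therefore called the libraries labelled cKO. Results that rest on either of the 2 libraries that stand apart are given with and without it.

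The promoters are shown because class II genes are known to share an upstream module, in which an X box and a Y box are bound by factors that recruit the *Ciita* product. RefSeq windows of 300 bases on GRCm38.p6, reaching from 250 bases before to 50 bases after each start, were found for 6 members (*H2-Aa*, *H2-Eb1*, *H2-DMa*, *H2-DMb1*, *H2-Oa* and *H2-Ob*). The sequences of 3 whose stretch overlaps no annotated exon are printed, with GNAAC and GATTGG in capitals.
H2-Aa, chr17:34287855-34287916, minus strand: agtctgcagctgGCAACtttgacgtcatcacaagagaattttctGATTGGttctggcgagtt
H2-Eb1, chr17:34305764-34305824, plus strand: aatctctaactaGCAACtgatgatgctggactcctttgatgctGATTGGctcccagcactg
H2-Ob, chr17:34238806-34238864, plus strand: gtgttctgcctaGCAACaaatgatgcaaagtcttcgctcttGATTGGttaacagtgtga

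On the strand of the gene, GNAAC followed by GATTGG after 15 to 40 bases was in the windows of 5 of the 6 members, all but *H2-DMa*. It was in 1.45% of all 32851 windows when both strands were searched, a wider search than that of the members. The longer CTGATTGG, which contains GATTGG, was on the strand of the gene in 3 members (*H2-Aa*, *H2-Eb1* and *H2-Oa*). It was on either strand in 4.1% of all windows. These letters and the spacing were chosen after the sequences were seen, and a match is a description of the window. Both *H2-DMa* windows lie well upstream of the gene as the tables place it, ending at bases 34122881 and 34125567 where the gene starts at 34135182. They do not cover that start, so the promoter there was not searched.

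All members but *Ciita* (chromosome 16) and *Cd74* (chromosome 18) lie in the major histocompatibility complex on chromosome 17. The levels of the members spanned a wide range within each library. On the RPKM scale, which corrects for gene length, *Cd74* had the highest level of the 9 in every library. It ranked between 1 and 7 among the 15043 tested genes in the CD45+ libraries, with a median rank of 1.5, and between 1 and 394 in the CD45- libraries. *H2-Aa* ranked between 11 and 70 in the CD45+ libraries, *H2-Eb1* between 15 and 127 and *H2-Ab1* between 22 and 173. *Ciita*, *H2-Oa* and *H2-Ob* had median ranks of 4953, 4642.5 and 5689.5 there. The 4 genes of the class II chains and the invariant chain made up 94.1% to 97.0% of the summed RPKM of the 9 members in all 22 libraries.

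As a share of all counts, the 9 members ran from 0.0323% (95% Wilson interval 0.0315% to 0.0331%) in WT TdT single positive replicate 1 to 6.74% in double positive replicate 2 of the libraries labelled cKO. The reads have no molecular identifiers, and such an interval reflects the counting error alone.

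All 9 members were higher in CD45+ than in CD45- cells. The log2 fold changes ran from 3.40 (*H2-DMa*) to 5.23 (*H2-Ob*), with a median of 3.70 against 0.06 over all tested genes. By edgeR's quasi-likelihood test, 9 of 9 members were called higher, where 32.6% of the tested genes were called higher. For *H2-Aa* the log2 fold change was 3.83 ± 0.64 (SE; edgeR adjusted p = 6.08e-05), and for *H2-Ob* it was 5.23 ± 0.79 (edgeR adjusted p = 2.09e-05). Leaving out both libraries that stand apart, all 9 were again called, with *H2-Aa* at 4.58 and *H2-Ob* at 4.90. The share of all tested genes called in that fit is not given, so the count cannot be read as particular to the members. In bulk RNA, fewer cells of a type and less RNA per cell cannot be told apart.

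The 2 genotypes and 4 populations were read gene by gene for *H2-Aa*. WT double positive libraries had 6375, 2080 and 7393 CPM, and those labelled cKO had 4257, 7265 and 2442 CPM. WT CD45 single positive libraries had 6477, 5239 and 1924 CPM, and those labelled cKO had 6573, 3639 and 1949 CPM. Replicates within each of these 4 groups thus differed by up to several times, and the groups overlapped throughout. WT TdT single positive libraries had 27.3 and 205 CPM, whereas those labelled cKO had 774 and 945 CPM. WT double negative libraries had 66.1, 180 and 3470 CPM, and those labelled cKO had 63.6, 143 and 61.9 CPM. The single WT double negative library at 3470 CPM lay within the range of the CD45+ libraries, and it is the one with the high pan-leukocyte sum.

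**Figure D1:**
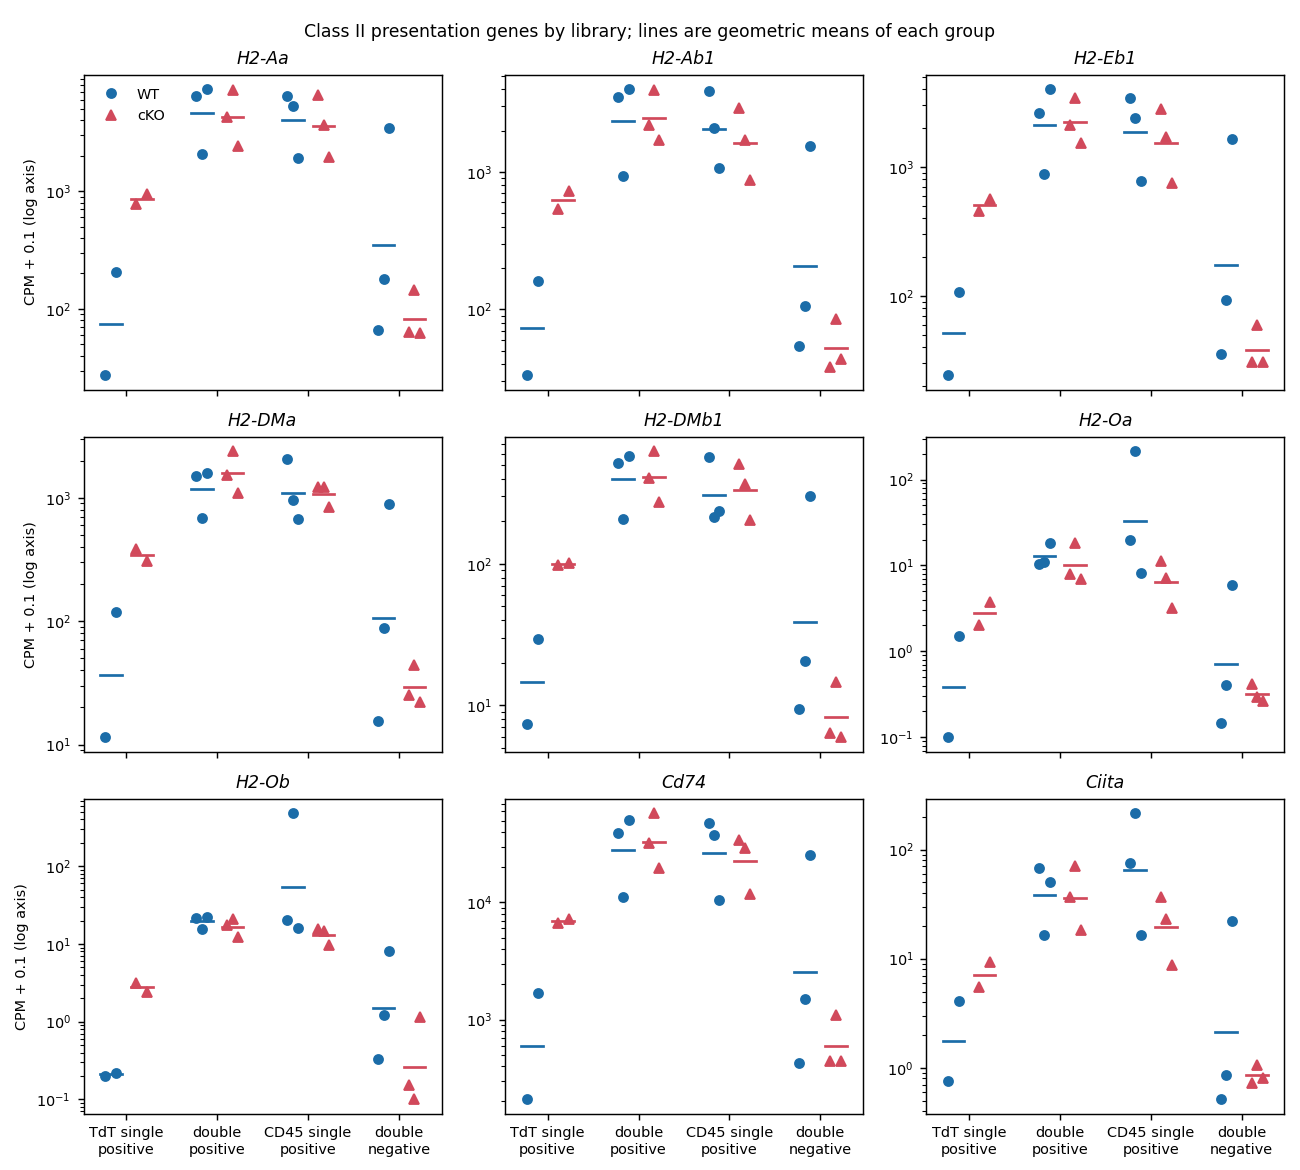
Levels of the 9 class II genes in CPM plus 0.1 on a log axis, by population and genotype, with 1 point per library and a line at the geometric mean of each group. *H2-Aa* runs from 27.3 CPM in a TdT single positive library to 7393 CPM in a double positive library, and WT double negative replicate 3 (3470 CPM) stands above the other double negative libraries.

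*Cd74* followed the same order. Its level ran from 11130 to 58150 CPM (median 35460 CPM) in the 6 double positive libraries and from 10540 to 48220 CPM (median 31500 CPM) in the 6 CD45 single positive libraries. The 4 TdT single positive libraries ran from 208 to 7160 CPM, and the 6 double negative libraries from 426 to 25340 CPM with a median of 772 CPM. The loading factors were lower in level and shared the pattern: *H2-DMa* ran from 678 to 2402 CPM in CD45+ libraries and from 11.3 to 885 CPM in CD45- libraries, and *H2-DMb1* from 203 to 629 CPM and from 5.84 to 301 CPM. *H2-DMb1* has a near-identical paralog, *H2-DMb2*, which the tables count separately, so the split of reads between them is uncertain.

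With all libraries, *H2-Ob* had the largest log2 fold change of the members in each of the CD45 contrasts. Leaving out 1 library, this did not always hold. In CD45 single positive minus double negative cells *H2-Ob* then fell as low as 3.81, whereas *H2-Oa* stayed at 3.86 or more. In double positive minus TdT single positive cells *H2-Oa* reached 6.48, against at most 5.15 for *H2-Ob*. *H2-Ob* had 12.2 to 22.4 CPM in the 6 double positive libraries, and 0.102, 0.116, 3.08 and 2.28 CPM in the 4 TdT single positive libraries. The first 2 of these, both WT, stood for 2 and 3 counts. They were under or at the 3 counts taken as the smallest signal present, so the size of its fold changes is uncertain. Of the 9 members, *H2-Ob* alone had every CD45+ library above every CD45- library, its lowest CD45+ value being 9.54 CPM and its highest CD45- value 8.04 CPM, a separation that 3.7% of the tested genes showed in that direction. Without WT double negative replicate 3, 7 of the 9 were separated in this way, all but *H2-Oa* and *Ciita*, as were 8.02% of the tested genes. *H2-Oa* had no count in WT TdT single positive replicate 1. In the libraries labelled cKO, *H2-Ob* had 1 count in double negative replicate 1 and none in replicate 2. *Ciita* had 16.3 to 70.3 CPM in double positive cells, 0.664 to 9.25 CPM in TdT single positive cells, and 0.414 to 22.03 CPM in double negative cells.

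Within TdTomato+ cells, all 9 members were called higher in double positive than in TdT single positive cells (edgeR's quasi-likelihood test; 22.7% of the tested genes were called higher). The log2 fold changes ran from 3.07 (*H2-Oa*, SE 1.06, edgeR adjusted p = 0.0243) to 5.03 (*H2-Ob*, SE 1.20, edgeR adjusted p = 0.00262), with a median of 3.45. The libraries of both populations did not overlap for any of the 9, as was so in that direction for 17.6% of the tested genes. Without WT TdT single positive replicate 1, *H2-Oa* (log2 fold change 2.60, edgeR adjusted p = 0.0873) and *Ciita* (3.00, edgeR adjusted p = 0.0541) were no longer called, and without either TdT single positive library labelled cKO, *H2-Oa* was not.

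Within TdTomato- cells, all 9 were called higher in CD45 single positive than in double negative cells, against 27.4% of the tested genes. The log2 fold changes ran from 3.48 (*H2-DMb1*, SE 0.69) to 5.43 (*H2-Ob*, SE 0.97, edgeR adjusted p = 0.000192). Here *H2-Ob* alone had no overlap between the libraries, which held in that direction for 7.4% of the tested genes. Without WT double negative replicate 3, the libraries overlapped for 0 of the 9, and 17.2% of the tested genes were separated in that direction. Leaving out both libraries that stand apart, the 9 log2 fold changes ran from 4.84 to 5.58, and all were called. For that fit, too, the share of all tested genes called is not given. The CD45 difference was not shown to depend on TdTomato: 0 of 9 members were called for the difference of the 2 contrasts by edgeR (0.00665% of the tested genes were called; no member had an unadjusted p under 0.05), and DESeq2 called 0 of them as well. The interval for *H2-Aa* was -2.01 to 2.58 on the log2 scale and that for *H2-Oa* was -4.90 to 0.77.

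**Figure D2:**
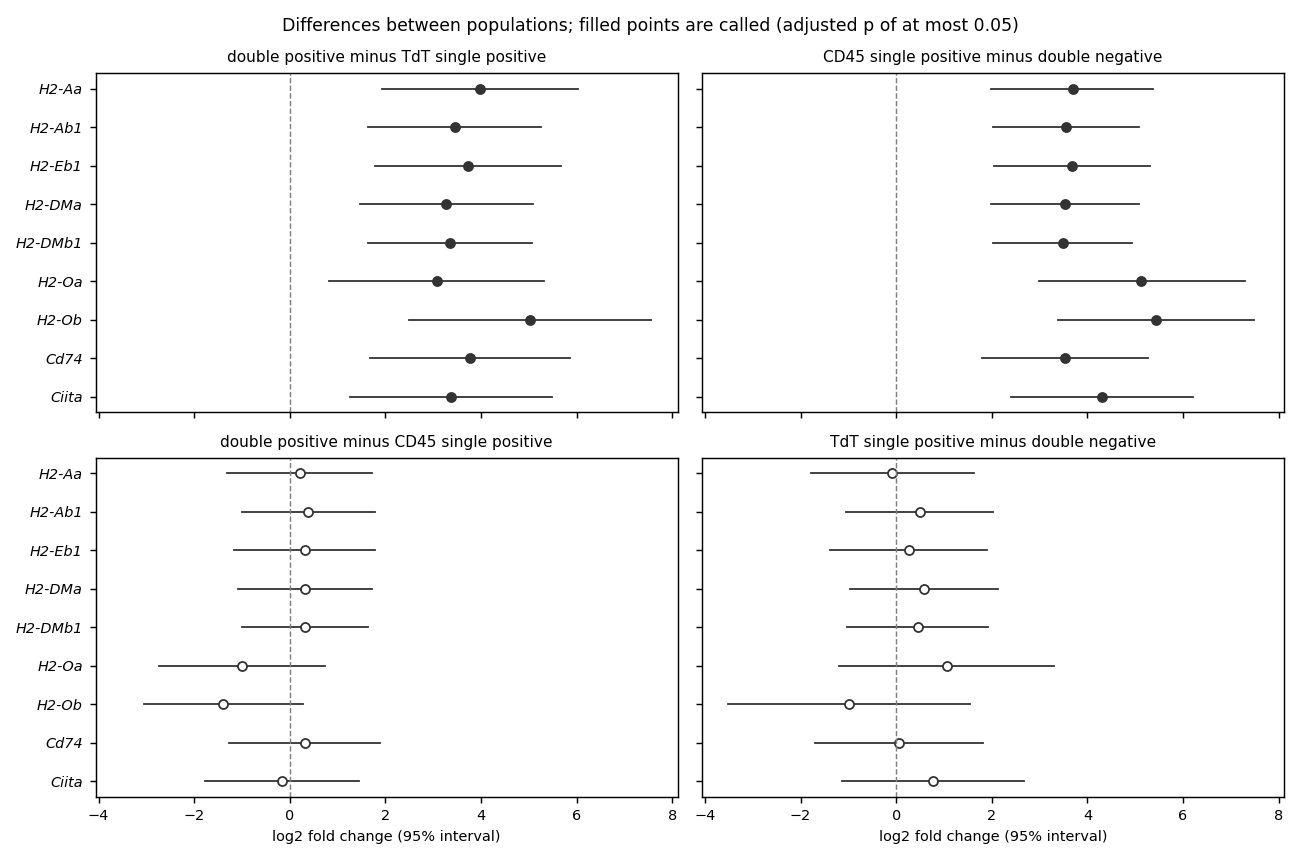
Log2 fold changes of the 9 members (horizontal axis, with 95% intervals) between populations, filled where called at an adjusted p of at most 0.05. All 9 are filled in both contrasts of CD45+ with CD45- cells, and 0 of 9 in double positive minus CD45 single positive cells and in TdT single positive minus double negative cells.

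Double positive cells and CD45 single positive cells, the 2 CD45+ populations, were compared to ask whether TdTomato marks a difference in class II genes among leukocytes. It did not reach the threshold in any member. By edgeR, 0 of 9 were called (0.00665% of the tested genes), no member had an unadjusted p under 0.05, and DESeq2 and limma called 0 of 9. *H2-Aa* differed by 0.21 ± 0.72 (SE) on the log2 scale, with an interval from -1.32 to 1.73. *Cd74* differed by 0.31, with an interval from -1.27 to 1.89, and *H2-Ab1* by 0.39, with an interval from -1.0 to 1.78. These intervals allow a difference of more than 2-fold either way. In the simulated data for this contrast, 20.9% of genes changed by 1 on the log2 scale were called, and 82.1% of those changed by 2. Simulated counts followed the trend of the spread over all genes, not the members' own spread. These shares are therefore not detection rates for the members, whose SE in this contrast ran from 0.63 (*H2-DMb1*) to 0.82 (*H2-Oa*). How often a change of 2 would be called in the members was not tested.

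*H2-Oa*, *H2-Ob* and *Ciita* had the lowest log2 fold changes of the members in this contrast: -1.0, -1.39 and -0.16. In WT cells alone they were -2.63 (*H2-Oa*, unadjusted p = 0.0446 and adjusted p = 1.0 by edgeR), -3.13 (*H2-Ob*, unadjusted p = 0.0168 and adjusted p = 1.0 by edgeR) and -1.20 (*Ciita*). No gene was called in WT alone by edgeR or limma, and DESeq2 called 5 genes. These values rest on WT CD45 single positive replicate 2. In that library *H2-Oa* stood at 215 CPM against 3.07 to 19.9 CPM in the other 5 CD45 single positive libraries, and *H2-Ob* at 484 CPM against 9.54 to 20.3 CPM. *Ciita* stood at 216 CPM against 8.58 to 75.7 CPM. The main chains were not raised with them: *H2-Aa* had 5239 CPM and *H2-DMa* 961 CPM there, within the range of the others. Without this library, in the contrast over both genotypes, *H2-Oa* was 0.27, *H2-Ob* 0.24 and *Ciita* 0.42.

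The balance of these genes differed in this library, which also had the highest B cell marker sum. The RPKM ratio of H2-DO (*H2-Oa* plus *H2-Ob*) to H2-DM (*H2-DMa* plus *H2-DMb1* and its paralog *H2-DMb2*) was 0.318 in WT CD45 single positive replicate 2 and 0.00266 to 0.0242 in the other 21 libraries. Over the 12 CD45+ libraries, Pearson's r of its log2 value was 0.95 with the B cell and 0.95 with the neutrophil marker sum. Over the 11 other CD45+ libraries, r with the B cell marker sum was 0.29, so the relation with that list rests on this library. There r was 0.81 with the neutrophil and 0.61 with the T cell markers. It was -0.60 with the macrophage, -0.31 with the fibroblast, -0.27 with the dendritic cell and -0.05 with the pan-leukocyte markers. *Ciita* over *H2-Ab1*, in RPKM times 1000, was 32.2 in that library and 2.26 to 7.75 in the others. *H2-DMb2* stood at 459 CPM there, and *H2-DMb1* over *H2-DMb2* in RPKM was 0.536 there and 2.44 to 12.6 elsewhere. *H2-Eb2*, too low to be tested, had 206 of its 279 counts in this library. Its B cell marker sum of 1714 RPKM came with 1085 RPKM of 5 T cell markers and 1378 RPKM of 5 neutrophil markers, the highest of all libraries in each list. Its dendritic cell sum of 342 RPKM was also the highest, the next being 135 RPKM. Its macrophage (1089 RPKM) and pan-leukocyte (3963 RPKM) sums were the lowest of the CD45+ libraries. *Ptprc*, a gene of the pan-leukocyte list, was however higher there (1821 CPM) than in any other library, so a low sum is not a low CD45 level. The part of the cells behind these marker lists in the difference was not tested.

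The ratios within the group of chains were narrower. On the RPKM scale, *H2-Aa* over *H2-Ab1* ran from 0.721 to 2.18 over all 22 libraries, *H2-Eb1* over *H2-Ab1* from 0.909 to 1.57, and *Cd74* over *H2-Ab1* from 7.31 to 20.8. H2-DM over the I-A chains ran from 0.217 to 0.452. The sum of the 9 members over that of the pan-leukocyte markers, both in RPKM, ran from 1.10 to 8.53 in CD45+ libraries and from 1.23 to 6.12 in CD45- libraries. The highest CD45+ value was in WT CD45 single positive replicate 2, where the pan-leukocyte sum was low although *Ptprc* was high, and the next was 6.13. The 2 ranges overlapped, and both were wide. In WT TdT single positive replicate 1 the pan-leukocyte sum was only 41.9 RPKM. The part of leukocyte RNA in the class II level of the CD45- libraries was not tested.

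Among the 12 CD45+ libraries, the sum of the members, most of it *Cd74*, went with the dendritic cell markers and not with the pan-leukocyte markers. Pearson's r of the log2 sums was 0.76 with 8 dendritic cell markers (Spearman's rho 0.84) and 0.94 over the 11 libraries without WT CD45 single positive replicate 2. It was -0.24 with 7 macrophage markers and -0.33 with the pan-leukocyte markers, and -0.30 and -0.56 without that library. Over the 10 CD45- libraries it was 0.94 with the pan-leukocyte, 0.94 with the macrophage and 0.96 with the dendritic cell markers. Over the 12 CD45+ libraries, r with the dendritic cell markers ran by member from 0.33 (*H2-DMb1*) and 0.47 (*H2-DMa*) to 0.91 (*Ciita*). *H2-DMb1* had 0.23 with the macrophage and 0.18 with the pan-leukocyte markers. These are descriptions over libraries that share populations and may share mice, and no p is given. The dendritic cell markers summed to between 27.5 and 342 RPKM in CD45+ libraries and to 0.889 to 44.2 RPKM in CD45- libraries.

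**Figure D3:**
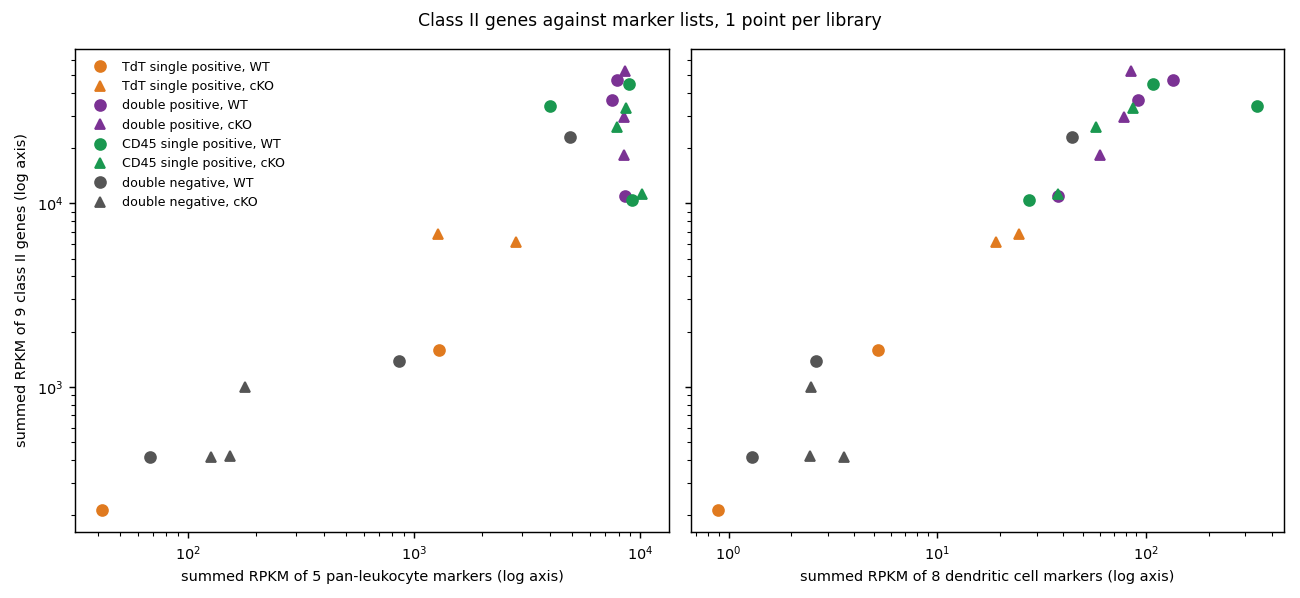
Summed RPKM of the 9 members against that of 5 pan-leukocyte markers, left, and of 8 dendritic cell markers, right, on log axes, with 1 point per library. CD45+ libraries other than WT CD45 single positive replicate 2 lie close together on the pan-leukocyte axis while their members' sum varies, and the sum is higher where the dendritic cell sum is higher (r = 0.76 over the 12 CD45+ libraries).

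The genes outside the 9 whose levels were most like the mean of *H2-Aa*, *H2-Ab1*, *H2-Eb1* and *Cd74* were listed by Pearson's r of log2 CPM. Over all 22 libraries these were *Plbd1* (r = 0.983), *Klrb1b* (0.982), *H2-DMb2* (0.981), *Tarm1* (0.98) and *Ebi3* (0.978), with a median of 0.044 over all tested genes. Over the 12 CD45+ libraries they were *Klrb1b* (0.938), *Gtf3c5* (0.919), *Adsl* (0.907), *Ripk3* (0.904) and *Ebi3* (0.904). Of the members outside those 4, *H2-DMa* (0.883) and *H2-DMb1* (0.875) stayed close over the CD45+ libraries, *Ciita* was at 0.789, and *H2-Oa* (0.464) and *H2-Ob* (0.29) were farthest.

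Genes that regulate or process class II molecules were read from lists. Of 10 regulators, 6 were called higher in CD45+ than in CD45- cells and 0 lower, with a median log2 fold change of 0.42. Over all tested genes, 32.6% were called higher in this contrast and 31.1% lower, the shares to set beside each list here. *Spi1* (3.37), the PU.1 factor of myeloid and B cells, and *Irf8* (2.29), a factor of dendritic cells and macrophages, had the largest values of the list. *Rfxank* (0.69), *Nfya* (0.87), *Nfyb* (0.46) and *Creb1* (0.35) were also called, whereas *Rfx5* (0.38, edgeR adjusted p = 0.212), *Rfxap* (0.30), *Nfyc* (0.13) and *Irf1* (0.04) were not. Of 8 genes of processing and turnover, 6 were called higher and 1 lower. *Ctss* (3.39), the protease that trims the invariant chain, *March1* (3.48), which ubiquitinates class II for turnover, *Ifi30* (2.80), a thiol reductase of the endosome, and *Lgmn* (2.16), an endosomal protease, rose, as did *Ctsd* (1.34) and *Ctsb* (0.90). *Ctsl* fell by 0.47 on the log2 scale, and *March8* (-0.30) was not called. Of 5 genes of the interferon gamma axis, *Ifng* (3.68), *Ifngr1* (1.71) and *Ifngr2* (1.05) rose and *Jak1* (-0.01) and *Jak2* (-0.04) were not called. *H2-DMb2* rose by 3.99.

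TdT single positive and double negative cells, the 2 CD45- populations, were also compared. By edgeR 0 of 9 members were called, where 1.89% of the tested genes were, and DESeq2 and limma called 0 of 9. No member had an unadjusted p under 0.05. The log2 fold changes ran from -0.98 (*H2-Ob*) to 1.06 (*H2-Oa*), and *H2-Aa* was at -0.08, with an interval from -1.79 to 1.63. This contrast turned on WT double negative replicate 3. Without it, *H2-Aa* was 1.59 higher in TdT single positive cells. *H2-DMb1* (1.90, edgeR adjusted p = 0.0329) and *Ciita* (2.62, edgeR adjusted p = 0.0476) were then called, and *H2-Ab1* (1.90) and *H2-DMa* (1.92) were not. The share of all tested genes called without that library is not given, so these calls cannot be read as particular to the members. The pan-leukocyte markers had a median log2 fold change of 1.12 in the contrast with all libraries. The part of leukocyte RNA in this difference was not tested.

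Libraries labelled cKO were then compared with WT within each population. In TdT single positive cells, every cKO-labelled library was above every WT library for all 9 members, as was so in that direction for 21.4% of the tested genes. The log2 fold changes ran from 1.61 (*Ciita*) to 4.53 (*H2-Ob*, SE 1.92, unadjusted p = 0.0305 and adjusted p = 0.439 by edgeR), with a median of 2.70. The WT libraries held only 2 and 3 counts of *H2-Ob*. None of the 9 was called by edgeR, limma or DESeq2, 5 had an unadjusted p under 0.05 (as had 1583 of the 15043 tested genes), and edgeR called 0.00665% of the tested genes. Marker lists of other cells differed between these 4 libraries too, with none of their genes called. The pan-leukocyte markers had a median of 1.67, the macrophage markers of 1.79, the dendritic cell markers of 3.06, the 4 epithelial or tumour markers of 2.46 and 2 tested skeletal muscle markers of 6.34. The 5 fibroblast markers (-1.21) and 4 endothelial markers (-1.19) had the opposite sign. Their pan-leukocyte sums were 41.9 and 1283 RPKM in WT and 2809 and 1279 RPKM in those labelled cKO. Without WT TdT single positive replicate 2, the median over the members was 4.63, without WT TdT single positive replicate 1 it was 1.97, and none was called in either case. The part of RNA from these other cells in the difference was not tested.

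In double negative cells the sign was the opposite. All 9 members were lower in the libraries labelled cKO, by 2.99 (*H2-Ob*) to 3.86 (*H2-Eb1*) on the log2 scale. None was called by edgeR, at which no gene was called, and the lowest adjusted p was 0.18, though all 9 had an unadjusted p under 0.05 (as had 1443 of the 15043 tested genes). DESeq2 called 6 of the 9 (and 522 genes). The pan-leukocyte markers had a median of -3.50, the macrophage markers of -3.72 and the dendritic cell markers of -2.17, and 2 tested skeletal muscle markers had one of 3.16. Without WT double negative replicate 3, the 9 ran from -0.75 (*H2-Ob*) to 0.41 (*Ciita*) and none was called. Without WT double negative replicate 1, 6 were called. How many of all tested genes were called in that fit is not given, so the count cannot be read as particular to the members. *H2-Eb1* shows what the genotype difference rests on, with 35.5, 92.5 and 1632 CPM in WT and 30.5, 59.7 and 30.8 CPM in those labelled cKO.

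The difference between these 2 genotype effects was added after the values were seen. It ran from 4.93 (*Ciita*) to 7.52 (*H2-Ob*) on the log2 scale, and 0 of 9 members were called by edgeR (lowest adjusted p = 0.127, 0.00665% of the tested genes called), although all 9 had an unadjusted p under 0.05 (as had 1513 of the tested genes). DESeq2 called 6 of 9, and limma called none. Without WT double negative replicate 3 the median was 3.20 against 6.08 with it, and none was called. Without WT double negative replicate 1, 7 were called. The share of all tested genes called in that fit is not given, so the count cannot be read as particular to the members.

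In double positive cells, 0 of 9 members were called between the genotypes by edgeR, limma or DESeq2, and no gene at all was called by edgeR. *H2-Aa* differed by -0.18, with an interval from -2.34 to 1.97, and *Cd74* by 0.13, with an interval from -2.10 to 2.36. None of the 9 had an unadjusted p under 0.05 there. In CD45 single positive cells, 0 of 9 were called as well. *H2-Ob* (-3.72, unadjusted p = 0.00702 and adjusted p = 0.416 by edgeR) and *H2-Oa* (-3.50, unadjusted p = 0.0129 and adjusted p = 0.427 by edgeR) had the lowest values. *H2-Ob* alone had every library labelled cKO below every WT library, as was so in that direction for 5.91% of the tested genes. This held without WT CD45 single positive replicate 2, then with 11% of the tested genes, but the log2 fold change of *H2-Ob* was then -0.47 and that of *H2-Oa* -0.97. Between the genotypes, the difference of double positive and CD45 single positive cells was called in 0 of 9 members by edgeR, limma and DESeq2, and *H2-Ob* had an unadjusted p of 0.0425 by edgeR.

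**Figure D4:**
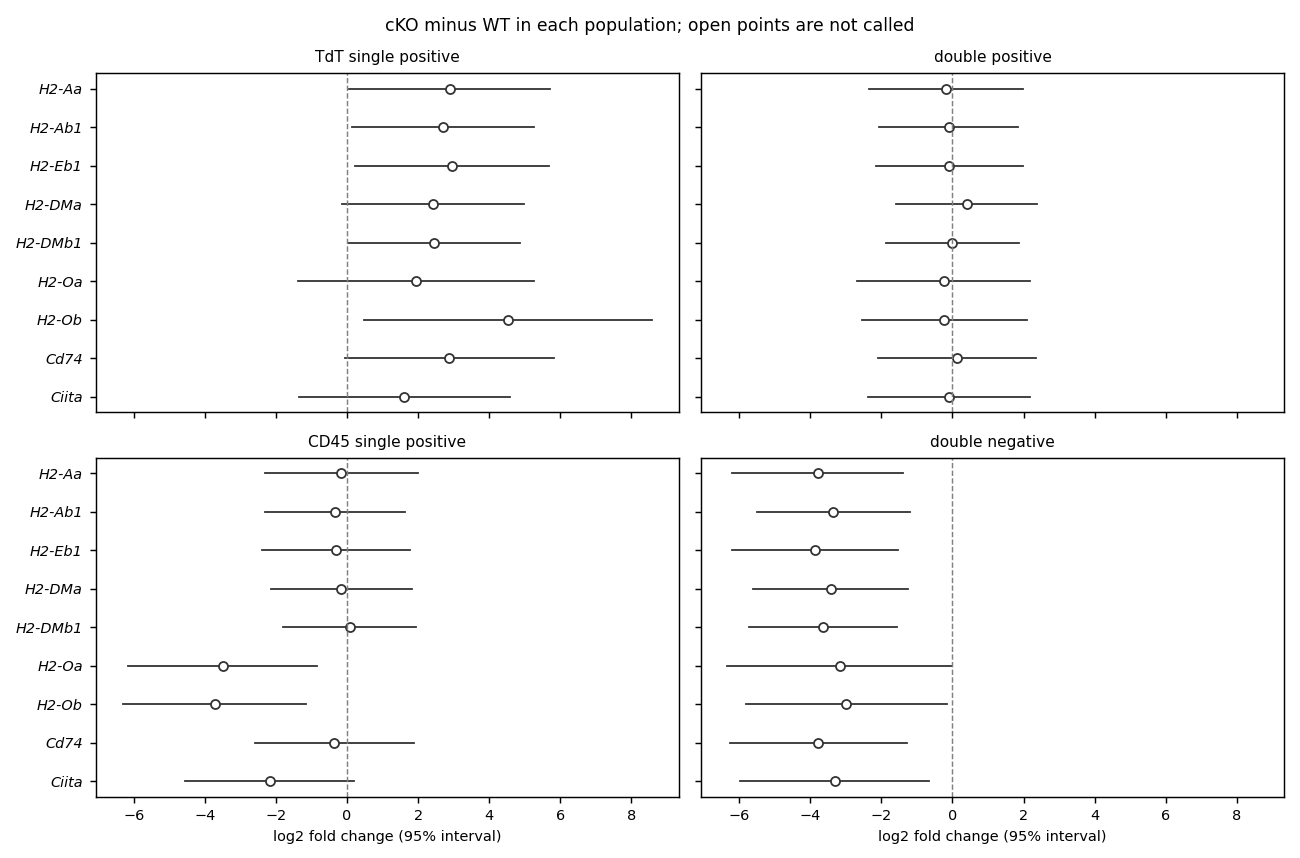
Log2 fold changes of the libraries labelled cKO over WT for the 9 members (horizontal axis, with 95% intervals) in each population, with open points for genes not called. All 9 lie above 0 in TdT single positive cells (1.61 to 4.53) and below 0 in double negative cells (-2.99 to -3.86).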

How the data were processed

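For 22 libraries of sorted cells, made with the SMARTer Ultra Low kit, which does not mark strand, the authors aligned single-end reads with STAR 2.0.4b to GRCm38 and counted uniquely aligned, unambiguous reads per Ensembl gene with featureCounts. The deposited count column holds whole numbers without normalization; the deposited CPM and RPKM columns are the authors' scaling of the counts by library total and gene length. The CPM and RPKM printed here were computed from the counts with TMM-scaled library sizes instead. Samples were grouped by their labels.

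Counts were analysed in R 4.3.3. Before testing, the 355 rRNA genes were dropped, and a gene had to exceed 1 CPM in 2 or more libraries. edgeR 4.0.16 (TMM factors, quasi-likelihood, 8 group means) was the main test, in 13 comparisons and 1 added later. Calls needed an adjusted p (Benjamini-Hochberg, over all 15043 genes) of 0.05 or less. The study's limma 3.58.1 (voomWithQualityWeights), DESeq2 1.42.0, RLE factors, no filter, a fold threshold, omitted libraries and a replicate block were alternatives. The fit was tested on simulated data. Members, marker lists and regulators were named by fixed symbol lists, chosen with earlier results of these data known; the promoter letters and the genes said to rest on a library were chosen after values were seen. A regulator of the fixed list is not reported here and is left out of its counts. Replicates are biological samples per the labels.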

Additional observations from a re-analysis of the deposited data

Results flagged for a closer look

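Among 48 groups of values examined (the 9 members and 3 ratios in each of 4 populations, both genotypes together), 13 had a highest library far from the others. In CD45 single positive cells, 4 of these were in WT replicate 2: *H2-Oa* at 215 CPM, *H2-Ob* at 484 CPM, *Ciita* at 216 CPM and the RPKM ratio of H2-DO to H2-DM at 0.318. In double negative cells, 9 were in WT replicate 3: *H2-Aa* at 3470 CPM, *H2-Ab1* at 1541 CPM, *H2-Eb1* at 1632 CPM, *H2-DMa* at 885 CPM, *H2-DMb1* at 301 CPM, *H2-Oa* at 5.89 CPM, *H2-Ob* at 8.04 CPM, *Cd74* at 25340 CPM and *Ciita* at 22.03 CPM. The other double negative libraries had at most 180 CPM of *H2-Aa*.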

How the results depend on the processing

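In the 3 comparisons of CD45+ with CD45- cells all members kept their direction under every alternative. DESeq2 gave no adjusted p for *H2-Ob* in any comparison and called the other 8 there. Leaving out 1 library, the number called of 9 in double positive minus TdT single positive cells ran from 7 to 9. Counts of members moved elsewhere as follows, with all genes called in the fits that left out 1 library not given. In TdT single positive minus double negative cells, 5 were called without both libraries that stand apart, and 0 to 2 leaving out 1. In the genotype contrast of double negative cells DESeq2 called 6, and leaving out 1 library gave 0 to 6. In the added difference of genotype effects DESeq2 called 6, no filter 2, and leaving out 1 library gave 0 to 7. All genes called in TdT single positive minus double negative cells were 284 by edgeR, 710 by limma, 986 by DESeq2, 92 with no filter and 1509 without both libraries; the added difference called 1, 0, 560, 101 and 3. A fold threshold of 2 on the log2 scale left 3717 of 9583 genes for CD45+ minus CD45- cells and all 9 members.

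The labels do not say whether a replicate number stands for 1 mouse. Same-numbered libraries of a genotype had correlations of deviations of -0.294 to 0.593 (median 0.0516 over 30 pairs), 10 of 30 over 0.1. Libraries with different numbers had -0.593 to 0.427 (median -0.021 over 60 pairs). Of the 22 libraries, 14 correlated best with their own number, so a partial pairing that the main fit leaves out remains possible. With the replicate block, all 9 members stayed called in the 3 CD45 comparisons and 0 elsewhere; CD45+ minus CD45- called 9162 genes. No paired analysis was possible for the genotypes because the numbers in the 2 genotypes are different mice.

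Members that were not called changed sign as follows (log2; the cause was not tested). Difference of the CD45 effect: with limma *H2-Aa* -0.62, *H2-Eb1* -0.84, *Cd74* -0.56; without both libraries *H2-Aa* -1.33, *H2-Eb1* -1.52, *H2-Ob* 0.13, *Cd74* -1.31; with the replicate block *H2-Aa* -0.64, *H2-Eb1* -0.97, *Cd74* -0.74; leaving out 1 library, *H2-Aa* -1.36 to 1.33, *H2-Ab1* -1.50 to 0.68, *H2-Eb1* -1.53 to 0.78, *H2-DMa* -1.58 to 1.0, *H2-DMb1* -1.57 to 0.53, *H2-Oa* -3.78 to 1.34, *H2-Ob* -2.22 to 1.22, *Cd74* -1.35 to 1.34. Double positive minus CD45 single positive: with limma *H2-Oa* 0.22, *H2-Ob* 0.10, *Ciita* 0.42; without both libraries *H2-Oa* 0.26, *H2-Ob* 0.24, *Ciita* 0.42; with the block *H2-Aa* -0.03; leaving out 1, *H2-Aa* -0.03 to 0.48, *H2-Oa* -1.29 to 0.27, *H2-Ob* -1.66 to 0.24, *Ciita* -0.46 to 0.42. The same in WT: with limma *H2-DMa* -0.03; without both *H2-DMa* -0.10, *H2-Ob* 0.13; with the block *H2-Aa* -0.22, *H2-Ab1* -0.19, *H2-Eb1* -0.43, *H2-DMa* -0.26, *Cd74* -0.48; leaving out 1, *H2-Aa* -0.15 to 0.60, *H2-Ab1* -0.08 to 0.84, *H2-Eb1* -0.32 to 0.67, *H2-DMa* -0.25 to 0.62, *H2-Ob* -3.67 to 0.12, *Cd74* -0.36 to 0.48. In those labelled cKO, leaving out 1, *H2-Aa* -0.28 to 0.74, *H2-DMb1* -0.09 to 0.61. Difference of the double positive effect between genotypes: *H2-DMb1* 0.18 with limma, 0.14 without both, 0.17 with the block, which gave *H2-Aa* 0.38; leaving out 1, *H2-Aa* -0.49 to 0.52, *H2-Ab1* -0.33 to 0.75, *H2-Eb1* -0.25 to 0.74, *H2-DMa* -0.01 to 0.86, *H2-DMb1* -0.67 to 0.26, *Cd74* -0.01 to 0.92. TdT single positive minus double negative: *H2-Aa* 0.94 with limma, 1.59 without both, 0.61 with the block; *H2-Ob* 0.76 with limma, 0.11 without both; leaving out 1, *H2-Aa* -1.12 to 1.59, *H2-Ab1* -0.29 to 1.90, *H2-Eb1* -0.47 to 1.86, *H2-DMa* -0.67 to 1.92, *H2-DMb1* -0.22 to 1.90, *H2-Oa* -2.35 to 2.83, *H2-Ob* -1.26 to 0.83, *Cd74* -1.03 to 1.68, *Ciita* -0.14 to 2.62. Genotype, double positive: *H2-DMb1* -0.11 with limma, -0.0013 with DESeq2 and with RLE factors, -0.02 without both; leaving out 1, *H2-Aa* -0.66 to 0.14, *H2-Ab1* -0.53 to 0.23, *H2-Eb1* -0.49 to 0.43, *H2-DMb1* -0.36 to 0.26, *H2-Oa* -0.83 to 0.06, *Cd74* -0.37 to 0.55, *Ciita* -0.71 to 0.32. Genotype, CD45 single positive: *H2-DMb1* -0.29 with limma, -0.16 without both; leaving out 1, *H2-Aa* -0.70 to 0.18, *H2-Ab1* -0.86 to 0.22, *H2-Eb1* -0.83 to 0.16, *H2-DMa* -0.46 to 0.42, *H2-DMb1* -0.25 to 0.67, *Cd74* -0.78 to 0.05. Genotype, double negative: without both *H2-Oa* 0.38, *Ciita* 0.41; leaving out 1, *H2-Oa* -3.76 to 0.38, *Ciita* -3.87 to 0.41.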
